A study of Mus musculus with 5 samples.

Results

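Hnrnpd, the gene of AUF1, and 3 relatives of the same family, Hnrnpdl, Hnrnpab and Hnrnpa0, were followed as mRNAs on mouse GeneChip arrays. The members were chosen by gene symbol. All probe sets that the array annotation gives to one of these symbols alone were taken, which made 18 of 45101 probe sets and 4 of the 18194 genes with a probe set of their own. Hnrnpd had 3 probe sets, Hnrnpdl 7, Hnrnpab 7 and Hnrnpa0 1, and none of the 18 was shared with another annotated gene.

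All RNA came from NIH/3T3 cells, an embryonic mouse fibroblast line, with a pair of stably integrated retroviral vectors, pBSwitch and the inducible pSLHGC-MYC-AUF1 p42. Together they let mifepristone switch on AUF1 p42 with an amino-terminal myc-tag, and the infected cells had been selected with blasticidin while mifepristone was present. Ribonucleoprotein immunoprecipitates (RNP-IPs) were collected on anti-c-myc agarose beads, so that mRNAs bound to the tagged protein, and whatever else stays on the beads, were recovered. The groups were 2 RNP-IPs labelled induced (1 nM mifepristone for 24 h), 2 RNP-IPs labelled uninduced (no mifepristone) and 1 sample of total RNA from the same transfected line, for which the labels do not settle whether the cells were induced. All cells also hold the endogenous AUF1 gene.

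AUF1, also called hnRNP D, is an RNA-binding protein of nucleus and cytoplasm that recognises AU-rich elements in the 3' untranslated region of short-lived mRNAs and takes part in their decay. It contacts RNA through a pair of RNA recognition motifs placed in tandem, and alternative splicing gives several isoforms named by their size. Its relatives share the tandem motifs. The Hnrnpdl protein (hnRNP D-like, or JKTBP) and the Hnrnpab protein (hnRNP A/B, or CBF-A) are the nearest to it in sequence, and hnRNP A0 is another binder of AU-rich mRNAs. The mRNAs of hnRNP proteins are often spliced and degraded under the control of hnRNP proteins themselves. In RefSeq for mouse GRCm38.p6, used for names and neighbours alone, Hnrnpd and Hnrnpdl lie next to each other on chromosome 5 with no protein-coding gene between them, while Hnrnpab lies on chromosome 11 and Hnrnpa0 on chromosome 13.

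Hnrnpd, the gene that the vector carries, was looked at first as a check of the labels. On its brightest probe set, 1425142_a_at, the RNP-IPs labelled induced were at log2 6.72 and 7.39, those labelled uninduced at 11.35 and 11.85, and total RNA at 10.60. A gene switched on by mifepristone would be higher in the cells behind the first pair of arrays, though signals on beads also depend on what is bound. Both arrays of this pair were lower than each of the other 3. The sources used here do not place the 3 probe sets on the mRNA made by the vector, and so they decide nothing about the labels. Il6, an mRNA known to bind AUF1 and taken up here after its values were seen, had the opposite order. It was at 6.24 and 7.90 in the RNP-IPs labelled induced, against 5.60 and 3.84 in the pair labelled uninduced and 4.15 for total RNA, and was called higher (log2 change 2.54, adjusted p = 0.408 from limma, lost without RNP-IP 2 labelled induced, at 1.71, or RNP-IP 2 labelled uninduced, at 2.19). The study also followed the tagged protein by Western blot and chosen mRNAs by RT-PCR, which are not analysed here and ran the way of induction. Neither is said to have used the RNP-IPs of these arrays, and so they do not check the labels of the arrays. The RNP-IPs are called by their labels throughout without further check, and each direction below rests on them.

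The signals are RMA values on a log2 scale, 1 value for each probe set and array. A comparison was made as in the methods of the study, between the 2 RNP-IPs labelled induced and the other 3 arrays taken as controls, with limma fitted to all 45101 probe sets. Calls needed 3-fold or more and an adjusted p (Benjamini and Hochberg) below 0.5. This is a lenient threshold, and no probe set of the array passed 0.05, the smallest adjusted p being 0.0523. Of the 18 probe sets 7 were called lower, where 1.66% of all probe sets were, and 0 were called higher, against 1.16% of all. The 7 were the 3 probe sets of Hnrnpd, 3 of the 7 of Hnrnpdl and the single probe set of Hnrnpa0, while Hnrnpab had none. Most probe sets of the array are near background and can hardly be called. Among the 9902 with a mean of at least log2 6 over the 5 arrays, 5.73% were called lower and 3.37% higher. The median log2 change of the 18 probe sets was -0.42, against 0.0048 for all probe sets and -0.12 for those with a mean of at least log2 6. Both arrays labelled induced lay below the 3 controls on 8 of the 18, against 10.6% of all probe sets, and above them on 1, against 11.0% of all. At an unadjusted p under 0.05 limma gave 8 of the 18, against 10.7% of all probe sets. The numbers count probe sets, and several of them measure the same mRNA.

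**Figure D1:**
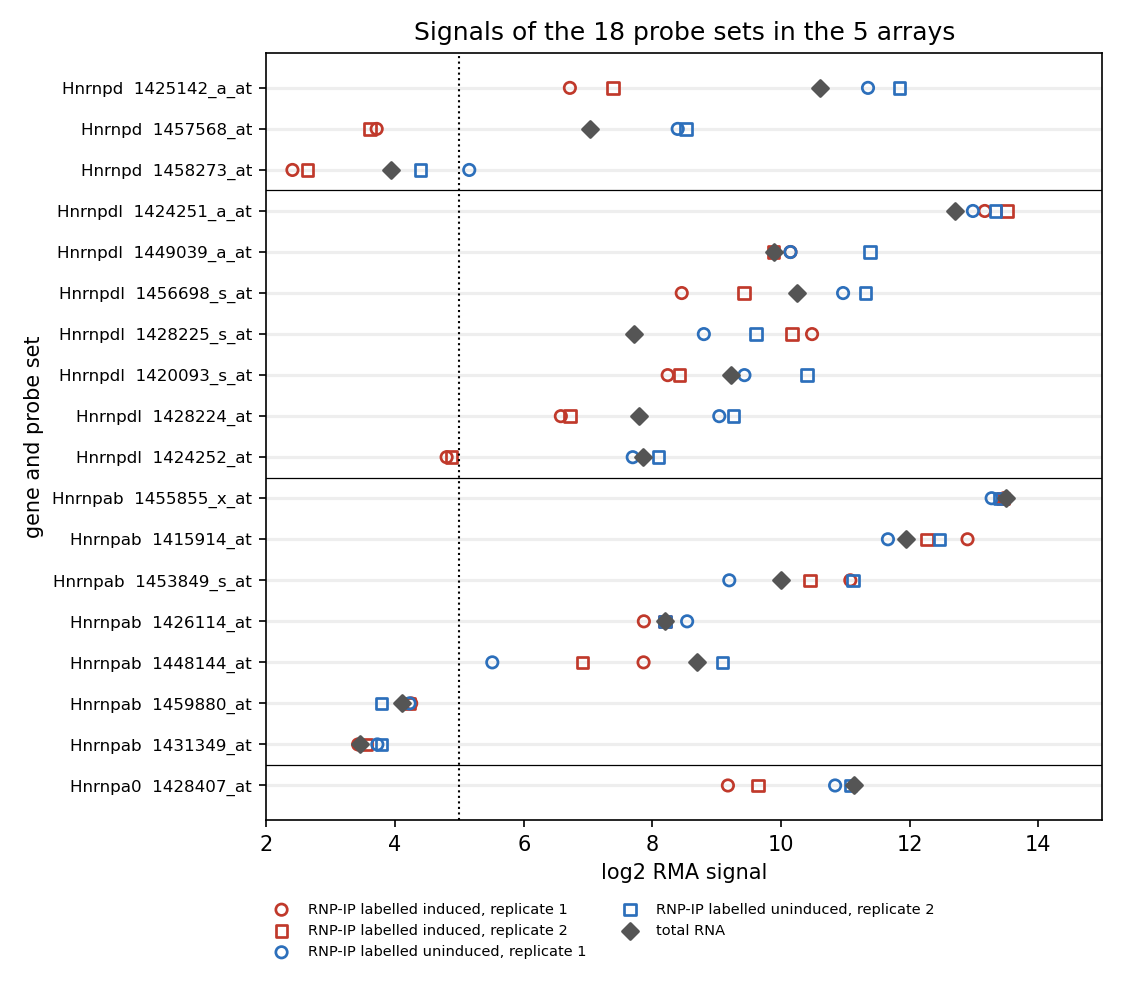
Signals of the 18 probe sets (rows, grouped by gene) in the 5 arrays, on the log2 RMA scale (horizontal axis), with red symbols for the RNP-IPs labelled induced, blue symbols for those labelled uninduced and grey diamonds for total RNA. The dotted line at log2 5 marks the level below which a signal is taken as not well above background, and the red symbols lie left of the other 3 in 8 rows and right of them in 1.

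Hnrnpd was lower in the RNP-IPs labelled induced on each of its 3 probe sets. On 1425142_a_at, whose ending marks probes shared by several transcripts of 1 gene, the signals given above make a log2 change of -4.21 (SE 0.46, 95% interval -5.50 to -2.93, adjusted p = 0.114 from limma), or 18.6-fold lower. The gap between the groups, from the higher of the 2 arrays labelled induced to the lowest control, was 3.21 on the log2 scale, while the replicates labelled induced differed from each other with an SD of 0.47 and the controls with an SD of 0.63. The second probe set, 1457568_at, was at 3.71 and 3.61 in RNP-IPs labelled induced, at 8.39 and 8.52 in those labelled uninduced and at 7.03 in total RNA. Both arrays labelled induced were under log2 5, a level chosen here above the array medians of 3.77 to 3.83, and are called not well above background. The fitted change was -4.32 (SE 0.54, adjusted p = 0.129 from limma), and with signals under log2 5 set to 5 the change was at least 7.90-fold. The third, 1458273_at, had 2.40 and 2.64 in RNP-IPs labelled induced, 5.15 and 4.39 in the pair labelled uninduced, and 3.94 in total RNA. It was called as well (log2 change -1.97, SE 0.41, adjusted p = 0.242 from limma). Only 1 of its 5 arrays was above log2 5, which leaves at least 1.04-fold as the bound, and without RNP-IP 2 labelled uninduced the call was lost (log2 change -2.02, adjusted p = 0.537).

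The order of the 3 groups was the same on the 2 brighter probe sets of Hnrnpd, with the RNP-IPs labelled uninduced highest, total RNA next and the RNP-IPs labelled induced lowest. The first step of this order did not pass the threshold. The RNP-IPs labelled uninduced stood above total RNA by 1.00 on 1425142_a_at (adjusted p = 0.594 from limma) and by 1.43 on 1457568_at (adjusted p = 0.167), and neither was called. On 1458273_at total RNA and both RNP-IPs labelled induced were under log2 5 and have no order. With 1 array of total RNA, its spread is assumed to be that of the other groups. Against total RNA alone, the RNP-IPs labelled induced were lower by a log2 change of -3.55 on 1425142_a_at (11.7-fold, adjusted p = 0.146 from limma) and of -3.37 on 1457568_at (at least 4.08-fold, adjusted p = 0.0912). Both were called. In bulk RNA, and on beads, a lower signal does not tell whether cells held less of an mRNA, whether fewer cells held it or whether less of it was bound.

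The 7 probe sets of Hnrnpdl did not move alike. On 3 the mRNA was called lower and on 4 it was not called, with fitted log2 changes from -3.05 to 1.62. The brightest, 1424251_a_at, was at 13.17 and 13.51 in RNP-IPs labelled induced, at 12.98 and 13.33 in those labelled uninduced and at 12.70 in total RNA. The groups overlapped, and the log2 change of 0.33 was not called (95% interval -0.32 to 0.99, adjusted p = 0.691 from limma). The signal on 1449039_a_at also overlapped, with 10.15 and 9.88 in RNP-IPs labelled induced, 10.15 and 11.39 in the pair labelled uninduced, and 9.89 in total RNA (log2 change -0.46, 95% interval -1.93 to 1.01, adjusted p = 0.785).

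On 3 other probe sets of Hnrnpdl the mRNA was called lower. The strongest of them by its p was 1424252_at, at 4.80 and 4.87 in RNP-IPs labelled induced, at 7.70 and 8.10 in those labelled uninduced and at 7.86 in total RNA. Both arrays labelled induced were just under log2 5, and the change of -3.05 (SE 0.14, adjusted p = 0.0621 from limma) was at least 7.38-fold. This was the smallest adjusted p among the 18 probe sets. On 1428224_at the RNP-IPs labelled induced were at 6.58 and 6.72, those labelled uninduced at 9.04 and 9.26 and total RNA at 7.79. The groups did not overlap and the signal was 4.14-fold lower (log2 change -2.05, SE 0.52, adjusted p = 0.298 from limma). On 1456698_s_at, whose ending marks probes that can also hybridise to transcripts of other genes, the RNP-IPs labelled induced were at 8.46 and 9.43, those labelled uninduced at 10.97 and 11.31 and total RNA at 10.25 (log2 change -1.90, SE 0.47, adjusted p = 0.293). Total RNA lay between the other groups on both of these. Each of the last 2 calls was lost when RNP-IP 1 labelled induced was left out, or either RNP-IP labelled uninduced, where the log2 change was -1.98, -1.88 and -1.77 on 1428224_at and -1.42, -1.84 and -1.67 on 1456698_s_at.

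The remaining 2 probe sets of Hnrnpdl were not called. On 1420093_s_at the RNP-IPs labelled induced, at 8.24 and 8.43, lay below those labelled uninduced, at 9.43 and 10.41, and below total RNA, at 9.22, but the difference was 2.55-fold (log2 change -1.35, adjusted p = 0.387 from limma). On 1428225_s_at the order was turned round. The RNP-IPs labelled induced were at 10.48 and 10.17, those labelled uninduced at 8.80 and 9.61 and total RNA at 7.71. No other member probe set had both arrays labelled induced above all controls. Its log2 change of 1.62 was 3.07-fold (SE 0.63, 95% interval -0.13 to 3.37) and missed the threshold at an adjusted p of 0.511. In 6 of 13 alternative analyses it was called higher.

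**Figure D2:**
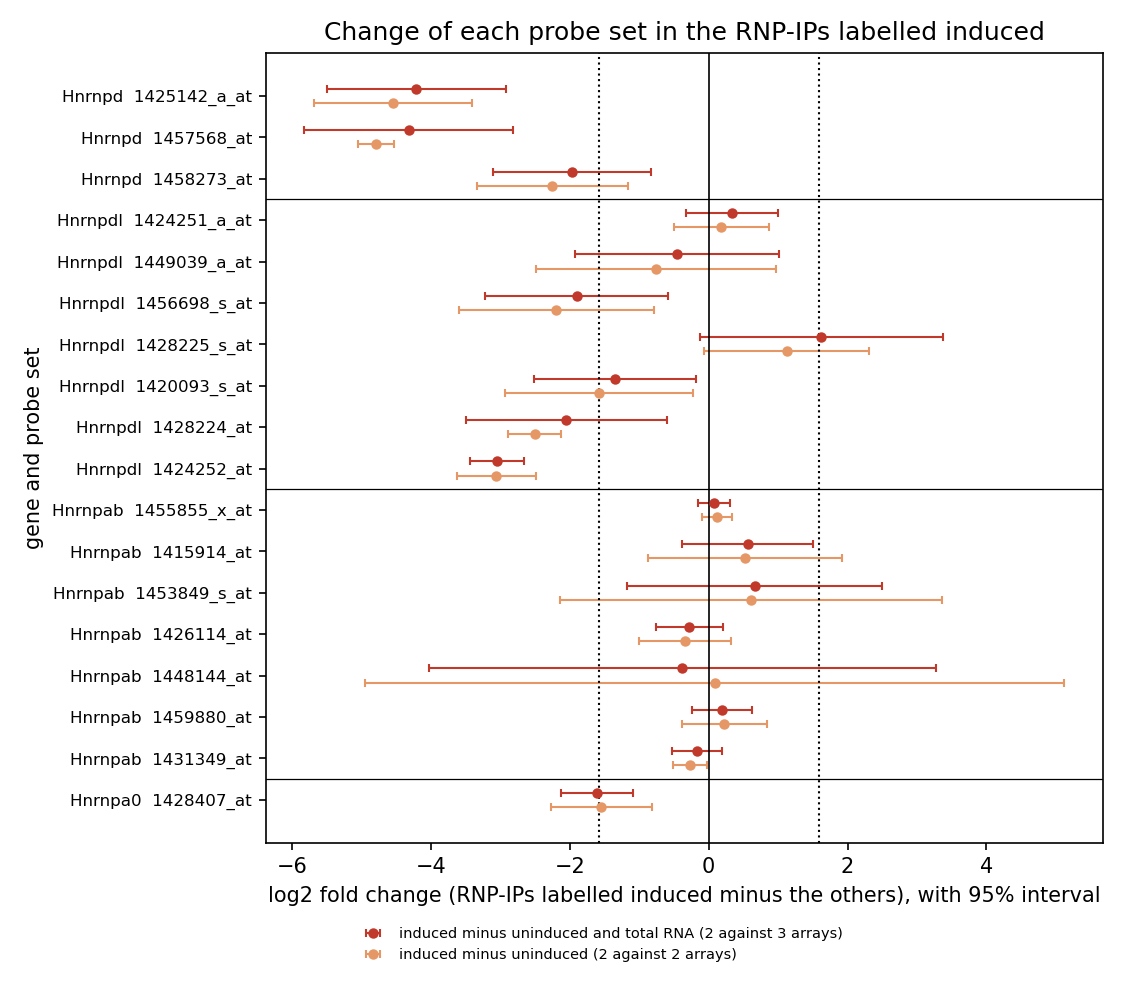
Log2 change of each probe set in the RNP-IPs labelled induced (horizontal axis) with its 95% interval from limma, in dark red against all 3 controls and in orange against only the 2 RNP-IPs labelled uninduced. Dotted lines mark 3-fold in either direction, and Hnrnpd lies left of the lower line on each of its 3 probe sets, with -4.21, -4.32 and -1.97 in dark red, while Hnrnpdl spreads from -3.05 to 1.62.

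The spread within Hnrnpdl also appeared between probe sets designed on the same cDNA, a pairing that was looked at after the values had been seen and is given without a test. One cDNA carries 1424251_a_at and 1424252_at, of which the first had a change of 0.33 and the second was at least 7.38-fold lower, a difference of at least 3.22 on the log2 scale. Another carries 1428225_s_at and 1428224_at, with 1.62 and -2.05 and a difference of 3.67. In both pairs the probe set with the plain ending, which marks probes unique to 1 sequence, had the negative change. Each pair thus gave fitted changes of opposite sign in the same 5 hybridisations. The 95% intervals of both positive changes include no change (-0.32 to 0.99 for 1424251_a_at, -0.13 to 3.37 for 1428225_s_at). The ending of 1428225_s_at also marks probes that can hybridise to transcripts of other genes. For Hnrnpab the same kind of pair differed by 0.94 (1415914_at and 1448144_at), and the other pair has a probe set under log2 5 in all arrays. Which stretches of the Hnrnpdl mRNA, which has alternatively spliced and polyadenylated forms, these probe sets read was not analysed here.

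**Figure D3:**
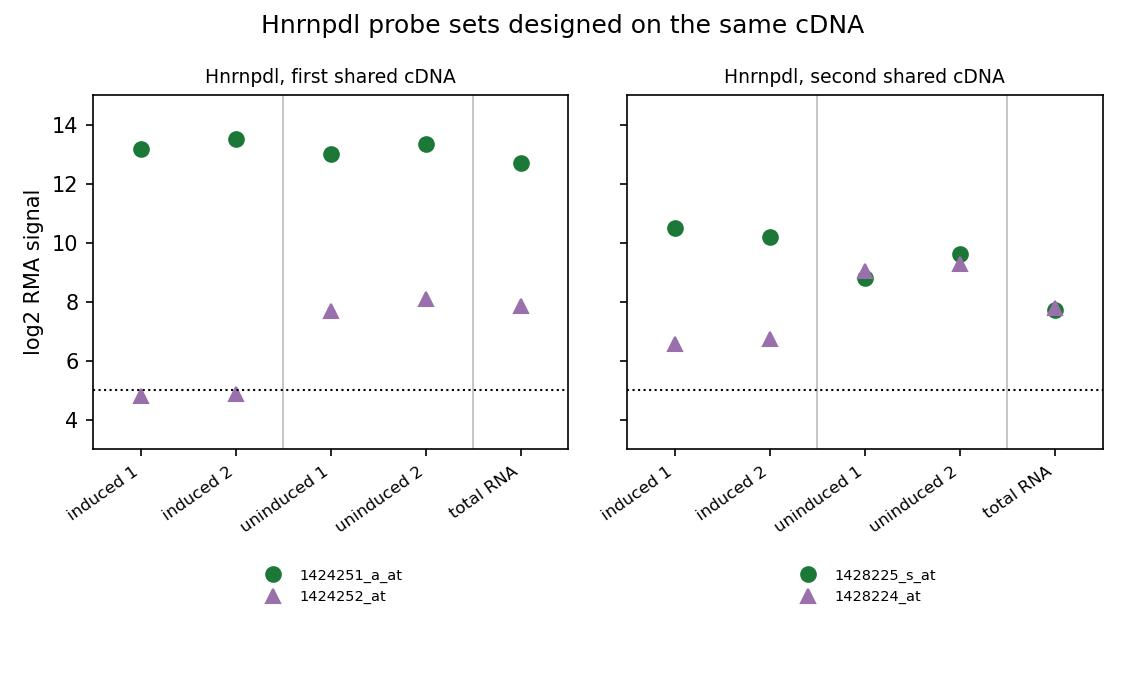
Signals of the 2 pairs of Hnrnpdl probe sets that share a cDNA (1 pair in each panel), on the log2 RMA scale (vertical axis), in each of the 5 arrays (horizontal axis). In the 2 RNP-IPs labelled induced the green circles overlap the controls in the left panel and lie above them in the right, while the purple triangles lie below the controls in both, at 4.80 and 4.87 and at 6.58 and 6.72. The dotted line marks log2 5.

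Hnrnpab was not called on any of its 7 probe sets. Its brightest, 1455855_x_at, was at 13.47 and 13.46 in RNP-IPs labelled induced, at 13.28 and 13.40 in those labelled uninduced and at 13.50 in total RNA. Its ending warns of probes that also fit other sequences. The change of 0.07 had a 95% interval of -0.16 to 0.30, which holds no change of 3-fold in either direction. On 1415914_at the RNP-IPs labelled induced were at 12.90 and 12.27, those labelled uninduced at 11.66 and 12.47 and total RNA at 11.94 (log2 change 0.56, 95% interval -0.38 to 1.50, adjusted p = 0.683 from limma). On 1426114_at, with 7.87 and 8.20 in RNP-IPs labelled induced, 8.54 and 8.20 in the pair labelled uninduced, and 8.20 in total RNA, the change was -0.28. Hnrnpab thus overlapped between the groups on 1455855_x_at and 1415914_at. On 1426114_at the groups only touched, at an equal value of 8.20.

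A further pair of Hnrnpab probe sets varied more between replicates than between groups. On 1448144_at the RNP-IPs labelled induced were at 7.86 and 6.91, those labelled uninduced at 5.51 and 9.09 and total RNA at 8.70. The change of -0.38 had a 95% interval of -4.03 to 3.27, which includes changes of 3-fold in either direction. On 1453849_s_at the RNP-IPs labelled induced were at 11.08 and 10.45, those labelled uninduced at 9.20 and 11.12 and total RNA at 9.99 (log2 change 0.66, adjusted p = 0.755 from limma). In both probe sets RNP-IP 2 labelled induced and RNP-IP 1 labelled uninduced were the lower array of their group. The array control at the 5' end of Gapdh was low in the same 2 arrays, at 4.24 in RNP-IP 2 and 8.18 in RNP-IP 1 labelled induced, at 3.65 in RNP-IP 1 and 7.81 in RNP-IP 2 labelled uninduced, and at 6.93 in total RNA. The control at the 5' end of Actb ran alike, with 7.17 and 11.35 in the RNP-IPs 2 and 1 labelled induced, 5.83 and 9.66 in the RNP-IPs 1 and 2 labelled uninduced and 8.50 in total RNA. The part of these differences in the signals of Hnrnpab was not tested. The last 2 probe sets, 1459880_at and 1431349_at, were under log2 5 in all arrays, between 3.79 and 4.25 and between 3.42 and 3.79, and measured nothing well above background.

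**Figure D4:**
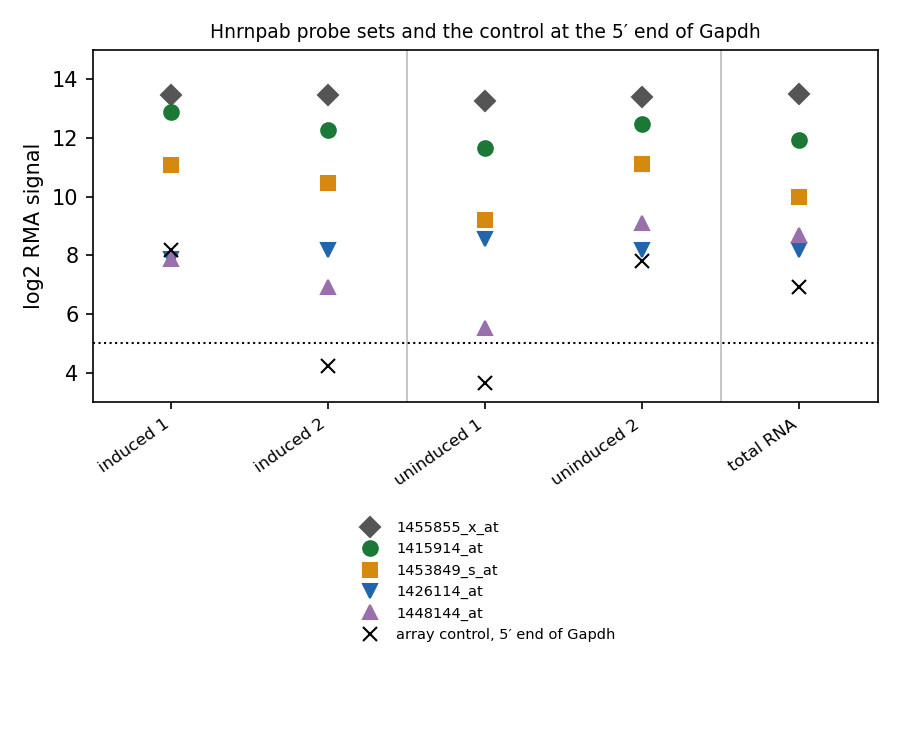
Signals of the 5 brighter Hnrnpab probe sets and of the array control at the 5' end of Gapdh (crosses) on the log2 RMA scale (vertical axis) in the 5 arrays (horizontal axis), with a dotted line at log2 5. The crosses are low in RNP-IP 2 labelled induced and RNP-IP 1 labelled uninduced, where the upright triangles of 1448144_at are low within their groups too, at 6.91 and 5.51, while the diamonds of 1455855_x_at stay between 13.28 and 13.50.

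Hnrnpa0, an intronless gene in the mouse, was represented by 1428407_at alone. The RNP-IPs labelled induced were at 9.18 and 9.64, those labelled uninduced at 10.84 and 11.08 and total RNA at 11.13. The groups did not overlap, with a gap of 1.20 on the log2 scale, and the 3 controls lay between 10.84 and 11.13. The change of -1.61 (SE 0.19, 95% interval -2.13 to -1.09, adjusted p = 0.118 from limma) was 3.05-fold, just past the fold required, and was called in 5 of 13 alternative analyses. Where the call was lost, the fold came out under 3, as with cyclic loess (log2 change -1.53), quantile normalization (-1.54) or z scores (-1.47), without RNP-IP 1 labelled induced (-1.37) or RNP-IP 2 labelled uninduced (-1.58), and without total RNA (-1.55). The sign was kept in all 13.

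The change of Hnrnpd was set against that of each relative within the same arrays, on the brightest probe set of each gene. Hnrnpd had the more negative change in each pair. The log2 change of Hnrnpd minus that of the relative was -4.55 for Hnrnpdl, -4.29 for Hnrnpab and -2.61 for Hnrnpa0. In an exact two-sided permutation test of the array labels each of the 3 differences had p = 0.1 (0.1 after adjustment over the 3), the smallest that 10 regroupings of 2 against 3 arrays allow. The design cannot reach 0.05. The brightest probe set of Hnrnpdl was not called, while 3 of its others were called lower. The differences were also taken between means over the probe sets of a gene with a mean of at least log2 6. They were then -3.29 for Hnrnpdl, -4.39 for Hnrnpab and -2.66 for Hnrnpa0. The size of the difference from Hnrnpdl thus depended on the probe sets taken.

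Against the 2 RNP-IPs labelled uninduced alone, 7 of the 18 probe sets were called lower (1.91% of all probe sets) and 0 higher (1.23% of all). This comparison shares its arrays with the one before and is no second measurement. Hnrnpd was lower by a log2 change of -4.55 on 1425142_a_at (adjusted p = 0.141 from limma) and of -4.80 on 1457568_at (at least 11.0-fold, adjusted p = 0.118). For Hnrnpdl, 1428224_at had a change of -2.50 (adjusted p = 0.118) while 1424252_at was at least 7.44-fold lower (adjusted p = 0.126), and 1420093_s_at now passed at 3.00-fold (adjusted p = 0.371). This last call was lost with cyclic loess (log2 change -1.51), quantile normalization (-1.48) or z scores (-1.49), with the replicate number as a block (adjusted p = 0.547), and when either RNP-IP labelled induced (-1.49 without the first, -1.68 at an adjusted p of 0.569 without the other) or RNP-IP 2 labelled uninduced (-1.10) was left out. Hnrnpa0, at 2.93-fold, did not pass (adjusted p = 0.212). No Hnrnpab probe set was called.

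Between the RNP-IPs labelled uninduced and total RNA, 0 of the 18 probe sets were called in either direction, where 0.891% of all probe sets were called higher and 0.933% lower. At an unadjusted p under 0.05 limma gave 4, on 1 probe set of Hnrnpd, 2 of Hnrnpdl and 1 dim one of Hnrnpab, against 10.9% of all probe sets. The farthest from total RNA was 1428225_s_at of Hnrnpdl, with a change of 1.50 (2.82-fold, adjusted p = 0.45), and next to it stood 1457568_at of Hnrnpd, with 1.43, 1448144_at of Hnrnpab, with -1.40, and 1428224_at of Hnrnpdl, with 1.36. For 1448144_at the 2 RNP-IPs lay on either side of total RNA. On 10 of the 18 probe sets both RNP-IPs labelled uninduced were above total RNA, as for 29.5% of all. Hnrnpa0 was close to total RNA, with a change of -0.17 (95% interval -1.06 to 0.72).

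Between the RNP-IPs labelled induced and total RNA, 4 probe sets were called lower (3.07% of all) and 1 higher (1.53% of all). The 4 were both brighter probe sets of Hnrnpd, 1424252_at of Hnrnpdl (at least 7.26-fold, adjusted p = 0.11 from limma) and Hnrnpa0 (log2 change -1.72, adjusted p = 0.19, lost without RNP-IP 1 labelled induced, at -1.49, and with z scores, at -1.50). The probe set called higher was 1428225_s_at of Hnrnpdl, at 6.13-fold (log2 change 2.62, adjusted p = 0.202), for which the RNP-IPs labelled uninduced were above total RNA as well.

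The genes with the profile most like a member were taken from 6400 genes with a mean of at least log2 6, by the root mean square (RMS) difference of the signals over the 5 arrays after each gene's mean had been removed. For Hnrnpd the nearest was Plaa, which encodes a ubiquitin-binding protein, with an RMS difference of 0.33 on the log2 scale. Plaa was at 4.32 and 4.82 in RNP-IPs labelled induced, at 9.55 and 9.28 in those labelled uninduced and at 8.71 in total RNA. Next came Spast, the microtubule-severing spastin (RMS 0.41), Far1, a fatty acyl-CoA reductase (0.42), Lpar4, a receptor for lysophosphatidic acid (0.53), and Mical1, an oxidoreductase that acts on actin (0.53). In Plaa and Lpar4 both arrays labelled induced were under log2 5. All 5 were called lower, with fitted log2 changes of -4.61 for Plaa to -3.42 for Lpar4. Each of these genes was taken by its brightest probe set alone. The study's own list of mRNAs enriched at least 3-fold with the tagged protein holds Spast, the opposite direction. Other probe sets of these genes were not analysed here. Of the relatives, each by its brightest probe set, Hnrnpa0 was 311th in this order, Hnrnpab 3725th and Hnrnpdl 4263rd. For Hnrnpdl this was 1424251_a_at, and its other probe sets, of which 3 were called lower, were not ranked.

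For the brightest probe sets of Hnrnpdl and Hnrnpab, which hardly varied, the nearest genes were flat too. They were Imp3, Pdcl3 and Akap12 for Hnrnpdl, with RMS differences of 0.07 to 0.10, and Ppme1, Wrnip1 and Rbmx2 for Hnrnpab, with about 0.05 each. None was called. Nearest to Hnrnpa0 were Oxsr1, a kinase of the response to osmotic and oxidative stress (RMS 0.10, called lower at a log2 change of -1.71), Trim59 (RMS 0.12, -1.55, not called) and Gpx1, a glutathione peroxidase (RMS 0.12, -1.53, not called). Trim59 is in the study's list of enriched mRNAs, against the sign on its brightest probe set, and its other probe sets were not analysed here. With 5 arrays many genes share a profile, and these likenesses are a description.

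Other RNA-binding proteins with tandem RNA recognition motifs were measured for 6 of 7 genes, since the probe sets of Hnrnpa3 are shared with another gene. None of the 6 was called on its brightest probe set, while 1.32% of the 18194 genes were called higher and 2.36% lower. Msi1, 1 of the 6, was under log2 5 in 4 of the 5 arrays. The median log2 change of the 6 was 0.14, against 0.0016 over all genes. The 2 that moved most were Msi2, a translational regulator of stem cells, and Dazap1, a splicing factor. Msi2 was at 6.79 and 6.62 in RNP-IPs labelled induced, at 7.99 and 8.32 in those labelled uninduced and at 7.96 in total RNA (log2 change -1.39, adjusted p = 0.11 from limma). Dazap1 was at 9.43 and 9.68 in RNP-IPs labelled induced, at 8.30 and 8.59 in those labelled uninduced and at 8.62 in total RNA (log2 change 1.05, adjusted p = 0.148). Neither overlapped between the groups, and both were under 3-fold. Of all probe sets, 10.6% lay wholly below the controls and 11.0% wholly above them. Msi2 has 8 probe sets, of which only the brightest was taken. The genes of hnRNP A1 and hnRNP A2/B1 had changes of -0.55 (Hnrnpa1) and -0.24 (Hnrnpa2b1).

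Proteins found with AUF1 in complexes of mRNA decay were measured for 8 genes. The median change was -0.04, and 1 of the 8 was called lower and 0 higher. That one was Paip1, a partner of the poly(A)-binding protein, at 6.33 and 8.02 in RNP-IPs labelled induced, at 10.19 and 9.67 in those labelled uninduced and at 9.84 in total RNA. Its log2 change of -2.72 (SE 0.58, adjusted p = 0.248 from limma) was no longer called without RNP-IP 2 labelled uninduced (-2.84, adjusted p = 0.537). Ybx1, an RNA-binding cold shock protein, had the second largest change and was not called. It was at 13.57 and 12.95 in RNP-IPs labelled induced, at 10.11 and 12.29 in those labelled uninduced and at 12.16 in total RNA (log2 change 1.74, adjusted p = 0.622), and the low value stood in RNP-IP 1 labelled uninduced. Syncrip, another hnRNP protein, was at 7.89 and 8.69 in RNP-IPs labelled induced, at 9.77 and 9.49 in those labelled uninduced and at 10.25 in total RNA (-1.54, adjusted p = 0.271, not called). The gene of the poly(A)-binding protein itself, Pabpc1, had a change of -0.43 and Hspa8, a constitutive heat shock protein, one of -0.06. Hspa1a and Hspb1 were under log2 5 in all arrays.

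The arrays were alike in their medians, and 9427 to 10289 probe sets of an array were at log2 6 or above. The 2 arrays of a group correlated over all probe sets with r = 0.980 for the RNP-IPs labelled induced and r = 0.975 for those labelled uninduced. Arrays of different groups came close to this, with r from 0.938 to 0.970. On probe sets with a mean of at least log2 6 the same 2 pairs had r = 0.93 and r = 0.91, against 0.77 to 0.88 between groups. Equal values in 2 or more arrays were found in 55.1% of all probe sets, and in 2 of the 18 here. The labelled cell type was checked by 8 fibroblast markers, such as Col1a1 and Vim, which were at log2 5 or above in all arrays (1 of them, Pdgfrb, was called lower at a log2 change of -1.59). The median change of these 8 was -0.38, and the log2 of their summed signals was 14.84 and 15.00 in RNP-IPs labelled induced, against 15.11 and 15.19 in the pair labelled uninduced and 15.36 for total RNA. Their part in the members' changes was not tested. Of 10 markers of epithelial, blood, endothelial and neural cells 8 were under log2 5 in all arrays and none was called. Epcam, on a probe set whose ending warns of other sequences, was at 6.66 to 6.99, and Cd3e at 4.68 to 5.16. The log2 of the summed signals of these 10 was 7.93 in both RNP-IPs labelled induced, against 7.98 and 7.85 in the pair labelled uninduced and 7.75 for total RNA.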

How the data were processed

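RNP-IPs labelled induced (2), RNP-IPs labelled uninduced (2) and total RNA (1) of NIH/3T3 cells were measured on GeneChip Mouse 430 2.0 arrays. The authors made cRNA by two-cycle labelling, normalized the signals by RMA (version not given in the sources used here) and deposited log2 values for 45101 probe sets. Two-cycle amplification favours 3' ends, and RMA forces like distributions on all arrays. Depth does not apply, and the number of arrays limits the precision. The study calls the RNP-IPs of induced cells independent, without naming separate cultures, and says nothing of this for the uninduced ones, so that p-values measure only the spread between these arrays.

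Gene names came from the platform annotation, brought up to date with RefSeq: 34958 probe sets had 1 gene, 932 several and 9211 none. A gene stands for its probe set of highest mean signal. Limma 3.58.1 in R 4.3.3 (lmFit, eBayes) was fitted to all probe sets, first with 2 groups as in the study's methods (3 residual degrees of freedom, prior 0.962), then with 3 groups (2 residual degrees of freedom), with Benjamini-Hochberg adjustment over the whole table. Calls needed a fold of 3 and an adjusted p under 0.5. Where a group was under log2 5 on all its arrays, values under 5 were set to 5 for a bound. The fits were checked on simulated data. Tables were made with Python 3.11.15. The members, gene lists and tests were chosen with earlier results of these data known. By a set rule the text names all member probe sets, called genes of a list and the 2 of largest change, and the 5 nearest profiles of Hnrnpd (3 for the others). Other genes are named as examples. No sequence is shown, since neither probe nor protein sequences were used here. Alternatives covered normalization (median centring, cyclic loess, quantile, z scores), dim probe sets, the threshold, a variance trend, total RNA, pairing and each RNP-IP left out.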

Additional observations from a re-analysis of the deposited data

How the results depend on the processing

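The calls of Hnrnpd on 1425142_a_at and 1457568_at and of Hnrnpdl on 1424252_at were kept under each of 13 alternatives at an adjusted p under 0.5, and each of the 3 differences between Hnrnpd and a relative kept its sign in 9 alternatives. Median centring of each array, among these 9, cannot alter a difference taken within an array and so tests nothing for them. At an adjusted p under 0.05 the number of member probe sets called lower was 0 against the controls, 0 against the RNP-IPs labelled uninduced and 0 against total RNA, and the number called higher against total RNA was 0. Under median centring, cyclic loess, quantile normalization and z scores 1424252_at passed 0.05 against the controls (adjusted p 0.0432, 0.029, 0.0334 and 0.0352), where 63, 38, 78 and 34 of all probe sets passed it at 3-fold, and 3 member probe sets passed when the brightest 15033 probe sets alone were fitted (smallest 0.0349), where 323 of these did. The number called higher against the controls, 0 as reported, was 1 under each of median centring, cyclic loess, quantile normalization, z scores, the brightest 15033 probe sets and a mean-variance trend, which was 1428225_s_at of Hnrnpdl in each. Between the RNP-IPs labelled uninduced and total RNA it was 1 under quantile normalization.

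Leaving out 1 RNP-IP at a time, the number called lower ranged from 3 to 7 against the controls (4 when RNP-IP 1 labelled induced was left out, 3 without RNP-IP 2 labelled uninduced). Over all probe sets, with 749 called lower as reported, these were 408 and 383. Against the RNP-IPs labelled uninduced the number called higher ranged from 0 to 1 (1 without RNP-IP 2 labelled uninduced). Between the RNP-IPs labelled uninduced and total RNA it ranged from 0 to 1 for higher (1 without RNP-IP 1) and from 0 to 1 for lower (1 without RNP-IP 2). A group left with 1 array is assumed to vary like the others.

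With the replicate number as a block and total RNA left out, 5 member probe sets were called lower and 0 higher, 1458273_at of Hnrnpd losing its call (adjusted p = 0.524) and Hnrnpa0 falling under 3-fold (log2 change -1.55). Over all probe sets the replicate block gave 286 higher and 368 lower, against 554 and 861 without it. Paip1 was no longer called (adjusted p = 0.649). No source pairs the numbers, and the deviations of same-numbered RNP-IPs from their group means ran against each other (correlation -0.50 over all probe sets). With the numbers crossed, an alternative added after the data were seen, 7 member probe sets were called lower and 0 higher, and 647 and 968 of all.

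Signs turned only for probe sets that were not called, and the cause was not tested. Against the controls, 1448144_at of Hnrnpab was at 0.0859 with the replicate block, with the crossed block and without total RNA, and between -1.51 and 0.28 with 1 RNP-IP left out. Against the RNP-IPs labelled uninduced, leaving out 1 RNP-IP gave -0.36 to 1.57 for 1453849_s_at and -1.70 to 1.88 for 1448144_at. Between the RNP-IPs labelled uninduced and total RNA it gave -0.16 to 0.24 for 1424252_at of Hnrnpdl, -0.28 to 0.53 for 1415914_at, -0.80 to 1.13 for 1453849_s_at, -3.19 to 0.40 for 1448144_at and -0.32 to 0.12 for 1459880_at. Between the RNP-IPs labelled induced and total RNA, 1455855_x_at was at 0.28 with z scores, 1426114_at at 0.0858 with quantile normalization, and 1431349_at at -0.0082 with median centring, -0.0121 with cyclic loess and -0.0203 with quantile normalization, while leaving out 1 RNP-IP gave -0.0354 to 0.0922 for 1431349_at and -0.0082 to 0.26 for 1449039_a_at of Hnrnpdl. Signals under log2 5 in both groups measure no fold.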
